A study of Mus musculus with 18 samples.

Results

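Brain and liver of newborn control mice were compared by RNA sequencing, gene by gene, to set the neural programme of a day 1 brain beside the hepatic programme of a day 1 liver. The comparison used 4 of the 18 libraries of the series: 2 of control brain and 2 of control liver, all from female mice on postnatal day 1. Genes were kept where the mean level reached 1 CPM (a gene's reads per 1 M reads in genes) in either organ, which held for 18579 of the 46078 gene identifiers in the tables. A gene that reached this level in a single organ entered through the organ where it was higher, so the counts below describe the organs and lend no weight of their own. The series was made to ask what happens when female mice lack Xist, the long noncoding RNA that silences an X chromosome in each female cell. Controls carried a heterozygous Xist deletion, so the controls of both organs were Xist-deleted on a single X chromosome and were not wild type. Their columns in the tables are headed WT, and the labels were followed. The mutants, with a homozygous Xist deletion, gave 2 brain and 2 liver libraries of the same sex and age. They were used here as other mice with the same organ contrast, and to test whether that contrast differed between the genotypes. The series text speaks of 2 biological replicates for each tissue, and names heart where the sample labels name brain. The labels do not say how or in which cells the deletion was made, nor whether a brain and a liver came from the same mouse.

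A newborn brain is made largely of young neurons that extend axons and build synapses, with progenitors, early astrocytes and the first oligodendrocyte precursors among them. A newborn liver serves several roles at once: hepatocytes secrete the plasma proteins and take over ammonia disposal, glucose output and fat oxidation after birth, and islands of blood-forming cells between them still make red cells and granulocytes. In whole organs, fewer cells of a type and less RNA per cell cannot be told apart.

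The labelled tissues were checked against their defining genes. Stmn2, which encodes a microtubule regulator of growing axons (ENSMUSG00000027500, chromosome 3, 8509360 to 8561606, plus strand, GRCm38), had 1119.6 and 1023 CPM in brain and 0.317 and 0.449 CPM in liver. Tubb3, the neuronal beta-tubulin (ENSMUSG00000062380, chromosome 8, 123411424 to 123422015, plus strand), had 2319 and 1999.7 CPM in brain and 1.71 and 1.18 CPM in liver. For both genes the brain libraries lay far above the liver libraries. Alb, which encodes serum albumin (ENSMUSG00000029368, chromosome 5, 90460897 to 90476602, plus strand), had 83877 and 50127 CPM in liver and 5.65 and 3.55 CPM in brain. Apoa1, the main protein of high-density lipoprotein (ENSMUSG00000032083, chromosome 9, 46228580 to 46230466, plus strand), had 9416 and 15233 CPM in liver and 1.55 and 1.82 CPM in brain. The log2 fold changes, brain minus liver, were 10.25 for Stmn2, 10.12 for Tubb3, -13.66 for Alb and -12.42 for Apoa1, with standard errors of 0.18, 0.21, 0.35 and 0.27. The limma adjusted p was 1.2e-05 for Stmn2, Tubb3 and Apoa1 and 1.3e-05 for Alb. As ratios of mean CPM, Tubb3 was 1491-fold higher in brain and Alb 14557-fold higher in liver. Per kilobase of exon, Alb reached 28609 CPM in liver and Apoa1 9971, while Tubb3 reached 1156 in brain and Stmn2 191.

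The sequences before the starts of a few of these genes are shown because promoter composition differed between genes of brain and genes of liver. Each is the 250 bases before the RefSeq gene start, which lay up to 168 bases from the GENCODE start, 5′ to 3′ on the gene's own strand, from RefSeq on GRCm38.p6. In the first pair every CG dinucleotide, the site of DNA methylation, is in capitals. The Tubb3 window (chr8:123411303-123411552, plus strand) held 21 CG pairs in 68% G and C, and the Alb window (chr5:90460620-90460869, plus strand) held 2 in 39.2%.
Tubb3: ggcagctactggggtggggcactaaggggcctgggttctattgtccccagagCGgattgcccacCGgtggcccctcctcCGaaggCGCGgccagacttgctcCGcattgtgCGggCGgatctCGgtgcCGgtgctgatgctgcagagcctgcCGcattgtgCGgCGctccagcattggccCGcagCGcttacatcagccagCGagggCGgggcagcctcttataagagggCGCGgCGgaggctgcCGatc
Alb: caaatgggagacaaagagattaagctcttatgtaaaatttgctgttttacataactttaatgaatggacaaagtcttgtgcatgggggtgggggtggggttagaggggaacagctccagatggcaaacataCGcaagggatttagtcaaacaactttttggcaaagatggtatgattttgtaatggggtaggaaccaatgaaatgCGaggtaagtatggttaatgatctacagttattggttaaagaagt
In the next set a short motif is in capitals: GTTAATNAT, written for the hepatic factor HNF1, before Afp (chr5:90490464-90490713, plus strand), CAAAGTCCA, for HNF4, before Cyp8b1 (chr9:121916306-121916555, minus strand), AGATAAG, for the erythroid GATA factors, before Hbb-bs (chr7:103827929-103828178, minus strand), and TTCAGCACC, the left part of the RE1 element bound by the neuronal repressor REST, before Syn1 (chrX:20920919-20921168, minus strand).
Afp: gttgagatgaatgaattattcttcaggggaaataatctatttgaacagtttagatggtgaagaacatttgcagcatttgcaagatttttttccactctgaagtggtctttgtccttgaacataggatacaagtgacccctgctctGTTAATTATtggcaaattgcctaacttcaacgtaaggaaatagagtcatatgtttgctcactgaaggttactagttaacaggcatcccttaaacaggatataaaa
Cyp8b1: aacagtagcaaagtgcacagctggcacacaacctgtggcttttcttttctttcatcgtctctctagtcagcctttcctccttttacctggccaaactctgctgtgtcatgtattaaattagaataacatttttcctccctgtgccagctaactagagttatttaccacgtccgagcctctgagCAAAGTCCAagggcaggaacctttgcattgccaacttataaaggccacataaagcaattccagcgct
Hbb-bs: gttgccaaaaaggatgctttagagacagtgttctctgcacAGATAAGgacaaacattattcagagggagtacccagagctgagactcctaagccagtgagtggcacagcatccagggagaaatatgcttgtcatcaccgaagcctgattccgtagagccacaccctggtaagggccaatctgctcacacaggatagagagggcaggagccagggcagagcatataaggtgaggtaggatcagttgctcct
Syn1: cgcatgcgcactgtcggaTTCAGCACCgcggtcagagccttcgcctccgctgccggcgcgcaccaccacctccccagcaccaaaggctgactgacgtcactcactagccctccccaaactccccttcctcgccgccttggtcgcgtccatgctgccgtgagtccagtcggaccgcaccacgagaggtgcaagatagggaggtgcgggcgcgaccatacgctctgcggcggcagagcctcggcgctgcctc
Afp, the fetal counterpart of albumin, had 14964 and 7899 CPM in liver and 0.693 and 0.606 CPM in brain. Cyp8b1, the sterol 12-alpha-hydroxylase of bile acid synthesis, had 234 and 108 CPM in liver and no read in brain, so it was at least 2386-fold higher in liver when brain is set at its limit of 3 reads over both libraries. Hbb-bs, an adult beta-globin, had 13381 and 4261 CPM in liver and 447 and 205 CPM in brain. Syn1, which encodes synapsin of the synaptic vesicle, had 187 and 186 CPM in brain and 0.380 and 0.122 CPM in liver. A match of letters is a description of the window and not a bound site.

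Promoters of genes with the widest organ contrast differed in base composition. At least 8-fold higher and called (limma adjusted p under 0.05 over all genes tested) were 2644 genes in brain, 14.2% of those tested, and 1252 in liver, 6.74%. This fold was chosen after the counts of calls were seen. A RefSeq promoter was matched for 1496 of the brain genes, 782 of the liver genes and 10812 of all genes tested. The observed number of CG pairs, divided by the number that the C and G content gives by chance, had a median of 0.650 in the brain genes, 0.264 in the liver genes and 0.709 in all genes tested. A ratio over 0.6 was found in 56.6% of the brain genes, 17.4% of the liver genes and 64.3% of all tested. The liver genes thus stood apart from the genes tested as a whole, while the brain genes lay close to them. The HNF1 letters GTTAATNAT, read on both strands, were present in 30 of the 782 liver promoters (3.84%), in 8 of the 1496 brain promoters (0.535%) and in 0.677% of all 15805 promoters in the table. The HNF4 letters CAAAGTCCA stood in 2.30% of liver and 0.267% of brain promoters against 0.418% of all promoters. The C/EBP letters TTGCNNAA stood in 15.3% and 6.28% against 8.98%, and AGATAAG in 6.27% and 1.54% against 2.33%. The order was turned for TTCAGCACC, with 0.256% of liver and 0.735% of brain promoters against 0.310% of all, and for the right part of RE1, GGACAGNGC, with 1.66% and 2.34% against 1.70%. The RE1 shares rest on few promoters, 2 and 13 in liver and 11 and 35 in brain. TATAAA was found in 15.1% of liver, 7.62% of brain and 10.5% of all promoters. Over the 10812 promoters of genes tested, the shares were 0.601% for HNF1, 0.462% for HNF4, 7.69% for C/EBP, 1.79% for AGATAAG, 0.333% and 1.86% for the left and right parts of RE1 and 6.81% for TATAAA, so that the brain share of TATAAA lay above that of the genes tested and below that of all promoters. Matches of different motifs overlapped in 3 of the 15805 promoters. No test was run on these shares, and base composition differs between the groups along with them.

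Gene span, from the first to the last annotated base with introns, set the brain genes apart from all genes tested. Its median was 33.6 kb in the brain genes at least 8-fold higher, 16.6 kb in the liver genes and 18.5 kb in all genes tested. Genes longer than 100 kb made up 29.3% of the brain genes, 5.45% of the liver genes and 12.8% of all tested.

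**Figure D1:**
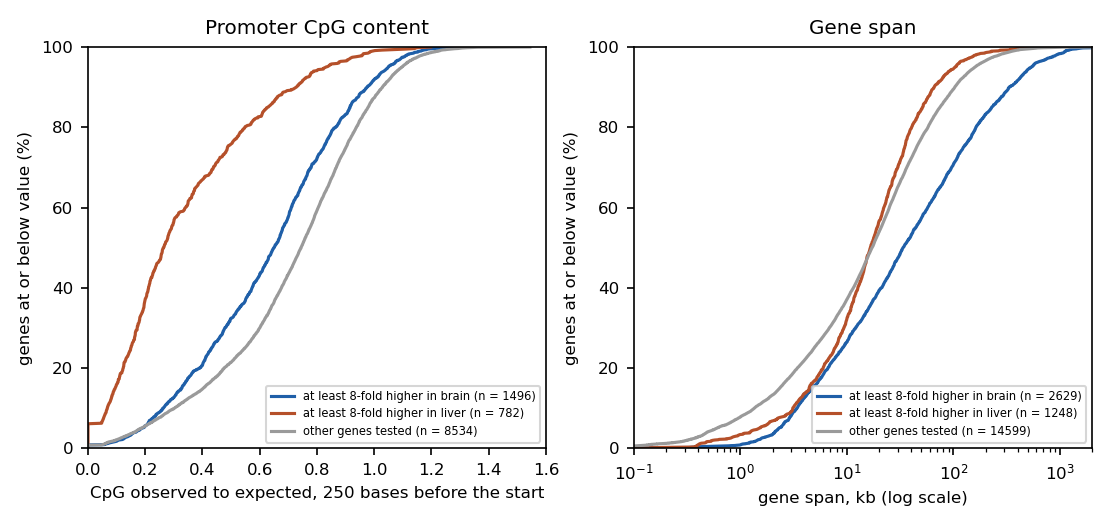
Cumulative share of genes (vertical axis, percent) by promoter CpG ratio (left, observed over expected in 250 bases) and by gene span in kb on a log scale (right), for genes called and at least 8-fold higher in control brain (blue), in control liver (orange) and the other genes tested (grey). The liver curve lies to the left on CpG ratio, with a median of 0.264, and the brain curve lies to the right on gene span, with a median of 33.6 kb.

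Reads in genes numbered 18.7 M and 23.1 M in brain and 15.8 M and 24.5 M in liver, so that a gene with no read could have had up to 0.122 to 0.190 CPM in a library. These limits and the counting intervals below cover counting error only. Control liver 1 stood apart: 1.47% of its reads lay in satellite repeat genes against 0.00142% in control liver 2, and 28889 genes had a read in it against 23623. Counting error alone was smaller than the spread within either organ, where libraries had a median absolute gap of 0.18 on the log2 scale in brain and 0.34 in liver. Liver reads were gathered in few genes, the 10 most abundant taking 23.8% and 18.3% of a library, against 5.68% and 5.42% in brain. Skeletal muscle, pancreas and pituitary markers were low in all 4 libraries. The highest were Acta1 at 4.68 CPM in control brain 2 and Cela1, a pancreatic elastase, at 5.90 CPM in control liver 1.

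Across all genes tested, 9143 (49.2%) were higher in brain and 4120 (22.2%) in liver by limma on log2(CPM + 0.5) with Benjamini-Hochberg adjustment. CPM shares out a fixed total, and the few very abundant liver genes leave fewer reads for all others. The median of all genes tested was 0.64 on the log2 scale with CPM and 0.11 after scaling by the trimmed mean of M values (TMM), a shift of -0.53. With TMM 6859 genes (36.9%) were higher in brain and 5822 (31.3%) in liver, so the share of calls in the brain direction went from 68.9% to 54.1%. All 6859 TMM calls in brain and all 4120 CPM calls in liver were called under both scalings, and 0 genes were called in opposite directions. Without control liver 1, 8707 and 4213 genes were called. Leaving out a brain library moved the counts more, to 6018 and 2204 without control brain 1 and to 5983 and 2371 without control brain 2. In 16351 genes, 88.0% of those tested, the 2 libraries of an organ did not overlap with the 2 of the other. Medians of gene lists below are on the CPM scale, to be read beside the 0.64 of all genes.

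**Figure D2:**
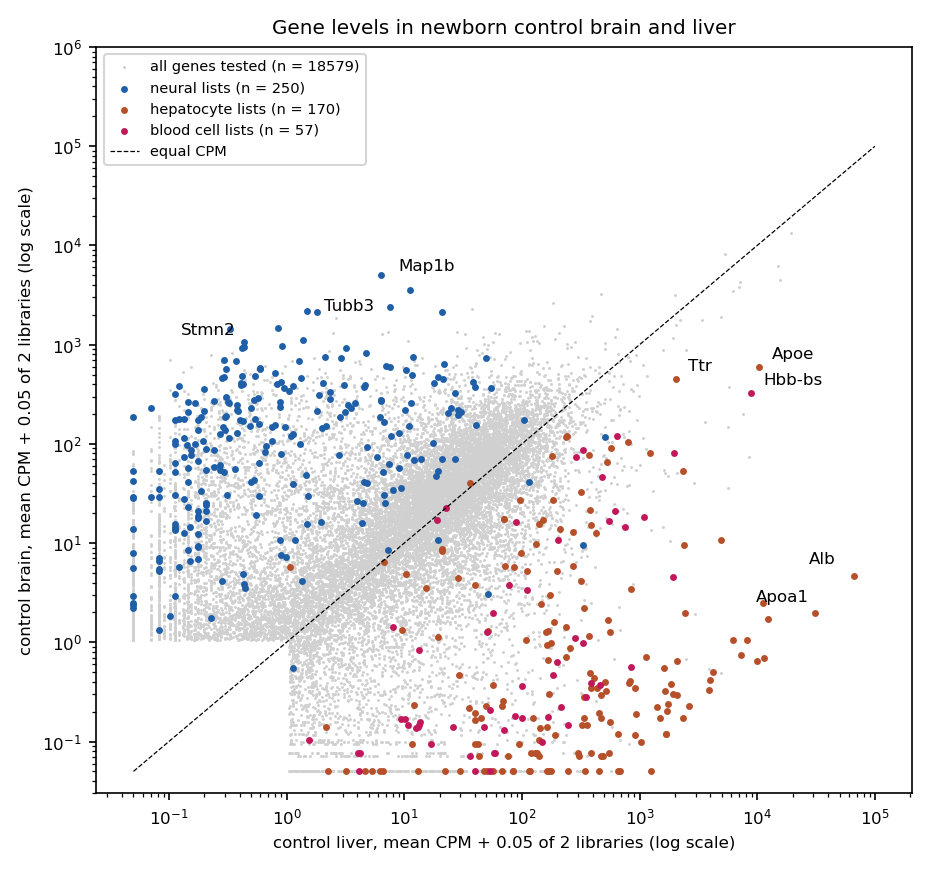
Mean CPM + 0.05 of each gene in the 2 control liver libraries (horizontal, log scale) and the 2 control brain libraries (vertical, log scale), for all 18579 genes tested (grey) and for members of the neural (blue), hepatocyte (orange) and blood cell (magenta) lists. Most neural genes lie above the dashed line of equal CPM and most hepatocyte genes below it, with Tubb3 at upper left and Alb at lower right.

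Genes of the neuronal programme were taken from 15 lists of neural functions with 257 genes in all, of which 250 were tested. Of these, 241 were higher in brain and 4 in liver, with a median log2 fold change of 5.88 and 6.07 when genes with no read in an organ are set at their bound. Together the 257 genes took 6.91% and 6.42% of the reads of the brain libraries and 0.205% and 0.219% of the liver libraries. Among the 4 higher in liver were Maob, Aldh1l1 and Aqp1, described with their lists. The 5 not called were Hopx, Ddc, Gnrh1, Mbp and Slc4a5. Without control liver 1, 228 were higher in brain and 5 in liver.

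The cytoskeleton of the growing neuron had the highest median of the 15 neural lists. All 20 genes of the list were called higher in brain, with a median of 9.17, and the list took 2.69% and 2.34% of brain reads against 0.00396% and 0.00410% of liver reads. Map1b, a microtubule-associated protein of extending axons, had 5288 and 4769 CPM in brain and 4.44 and 8.20 CPM in liver. Tuba1a, the main alpha-tubulin of young neurons, had 4003 and 3079.9 CPM in brain and 10.1 and 12.3 CPM in liver, a value that near-identical tubulin genes could share. Map2, of dendrites, had 2614 and 2222 CPM in brain and 7.67 and 7.43 CPM in liver. In each of these genes the brain libraries lay far above the liver libraries, which were at or below 12.3 CPM.

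Transcription factors that commit and pattern neurons were all higher in brain, 26 of 26, with a median of 5.59 and a range from 2.50 to 9.35. Sox11, a factor of newly formed neurons, had 1143 and 700.3 CPM in brain and 3.68 and 2.57 CPM in liver. Myt1l, which keeps neurons from other fates, had 497 and 439 CPM in brain and 0.444 and 0.0408 CPM in liver. Bcl11b, a factor of deep-layer cortical and striatal neurons, had 401 and 309.9 CPM in brain and 0.254 and 0.0408 CPM in liver. Zic1, of the cerebellum and dorsal midline, had 204 and 341 CPM in brain and 0.380 and 0 CPM in liver. Sox11 and Bcl11b were higher in control brain 1 and Zic1 in control brain 2, and 22 of the 26 factors were higher in control brain 1, with a median gap of 0.57.

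Progenitor genes were higher in brain in 14 of 15 cases, with a median of 5.72. Ptprz1, a receptor phosphatase of radial glia, had 727 and 658 CPM in brain and 0.444 and 0.0408 CPM in liver. Slc1a3, the glutamate transporter of radial glia and astrocytes, had 346 and 412 CPM in brain and 1.14 and 1.02 CPM in liver. Tnc, a matrix protein of the germinal zone, had 392 and 361 CPM in brain and 47.5 and 31.7 CPM in liver, and Notch1, the receptor that holds progenitors undifferentiated, had 171 and 180.5 CPM in brain and 88.6 and 120.00 CPM in liver. Notch1 was thus the closest of the named members that were called. Its log2 fold change was 0.77 with CPM (limma adjusted p = 0.0195) and 0.19 with TMM, where it was not called. Hopx, the member not called, had 6.72 and 10.4 CPM in brain and 9.96 and 4.37 CPM in liver.

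RNA-binding proteins that set neuronal splicing and RNA stability were higher in brain in 12 of 12 cases, with a median of 8.03. Elavl3 had 941 and 899.98 CPM in brain and 0.571 and 0.163 CPM in liver, Rbfox1 had 269 and 254 CPM in brain and 0.254 and 0.286 CPM in liver and Celf4 had 461 and 461 CPM in brain and 1.71 and 0.816 CPM in liver. The smallest contrast of the list was that of Ptbp2, the neuronal polypyrimidine tract protein, with 246 and 209 CPM in brain and 22.0 and 27.8 CPM in liver. Its relative Ptbp1, which represses neuronal exons outside neurons, went the other way with 199.5 and 259 CPM in liver and 83.3 and 89.8 CPM in brain. Rest, the repressor of neuronal genes in other cells, was also higher in liver, with 40.8 and 64.4 CPM in liver and 22.4 and 25.3 CPM in brain. The log2 fold changes were -1.39 ± 0.20 (SE) for Ptbp1 and -1.09 ± 0.26 for Rest, and limma adjusted p was 0.00174 and 0.0128. Brain and liver libraries did not overlap for either repressor, as in 88.0% of all genes tested, and both were read in brain in every library.

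Genes of glutamate, GABA and glycine signalling were called in one direction. All 19 glutamate genes were higher in brain, with a median of 7.57, and so were all 20 GABA and glycine genes, with a median of 6.88. Grin2b, the NMDA receptor subunit of the immature brain, had 1074 and 862 CPM in brain and 0.951 and 0.776 CPM in liver. Gria2, an AMPA receptor subunit, had 629 and 501 CPM in brain and 1.01 and 0.0816 CPM in liver, and Grm5, a metabotropic receptor, had 295 and 302 CPM in brain and 0.507 and 0 CPM in liver. Among GABA genes, Gabbr1, a subunit of the metabotropic GABA receptor, had 559.98 and 619.8 CPM in brain and 6.78 and 8.20 CPM in liver. The brain libraries of each of these genes lay far above the liver libraries.

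Monoamine and acetylcholine genes were called in both directions. Of 19, 16 were higher in brain, 2 in liver and 1 was not called (12 and 3 were called without control liver 1), with a median of 2.87. Maob, a monoamine oxidase that breaks transmitters down, was higher in liver, with 36.5 and 66.4 CPM in liver and 3.25 and 2.73 CPM in brain. Maoa, the other monoamine oxidase, went the opposite way with 33.8 and 33.9 CPM in brain and 8.81 and 7.22 CPM in liver. Ddc, which makes dopamine and serotonin from their precursors, had 9.07 and 12.1 CPM in brain and 14.3 and 24.3 CPM in liver, which was not called with CPM and was called higher in liver with TMM. Ache, acetylcholinesterase, had 58.0 and 84.1 CPM in brain and 34.4 and 19.5 CPM in liver. Its log2 fold change was 1.41 with CPM and 0.85 with TMM, where it was not called.

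Neuropeptide genes were low in the newborn brain. Of 17, 5 stayed under 1 CPM on average in both organs (Vip, Oxt, Avp, Agrp and Hcrt), 11 of the 12 tested were higher in brain, and Gnrh1 was not called. Penk, the enkephalin precursor, had 22.4 and 37.2 CPM in brain and 0.571 and 0.490 CPM in liver. Sst, somatostatin, had 34.1 and 23.5 CPM in brain and 0.0634 and 0 CPM in liver, with 1 read in liver and a ratio of 1138 (95% counting interval 204 to 44975). Cck, cholecystokinin, had 30.5 and 25.9 CPM in brain and no read in liver, so it was at least 379-fold higher in brain. Npy, neuropeptide Y, had 32.2 and 17.8 CPM in brain and 4.82 and 8.69 CPM in liver. Gnrh1, of the few neurons that drive reproduction, had 0.693 and 0.303 CPM in brain and 1.33 and 0.857 CPM in liver, and was called higher in liver with TMM.

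Synaptic genes were called higher in brain without exception, 19 of 19 for vesicle release (median 7.34) and 16 of 16 for the postsynaptic density and synaptic adhesion (median 6.35). Syt1, the calcium sensor of release, had 495 and 466 CPM in brain and 0.317 and 0.653 CPM in liver, and Syp, synaptophysin of the vesicle membrane, had 471 and 557 CPM in brain and 0.951 and 0.531 CPM in liver. Nrxn2, a presynaptic adhesion protein, had 728 and 777 CPM in brain and 1.90 and 2.20 CPM in liver. Dlg4, the scaffold of the postsynaptic density, had 609 and 616 CPM in brain and 5.64 and 8.12 CPM in liver. Camk2b, a calcium-dependent kinase of the synapse, had 622 and 548 CPM in brain and 0.444 and 0.653 CPM in liver. In each of these genes the liver libraries lay far below the brain libraries.

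Axon guidance genes were all higher in brain, 29 of 29, but over a wide range from 1.94 to 9.65 with a median of 4.60. Ncam1, an adhesion protein of neurites, had 2302 and 1942 CPM in brain and 22.2 and 19.8 CPM in liver. Plxna1, a semaphorin receptor, had 701 and 749.9 CPM in brain and 41.3 and 58.1 CPM in liver. Chl1, an adhesion protein of axons, had 555 and 583 CPM in brain and 0.507 and 0 CPM in liver. Cntn1, another, had 439.5 and 536 CPM in brain and 0.697 and 0.0408 CPM in liver. Voltage-gated channels were higher in brain in 14 of 14 cases, with a median of 5.92. Cacna1e, a calcium channel, had 559 and 559 CPM in brain and 8.12 and 12.3 CPM in liver, and Scn3a, a sodium channel of the immature brain, had 279.6 and 286 CPM in brain and 2.41 and 2.20 CPM in liver.

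Glial genes gave list medians near those of the monoamine and neuropeptide genes. Of 9 astrocyte genes 8 were higher in brain, with a median of 3.25, and all 9 were higher in control brain 2 than in control brain 1. Sparcl1, a secreted glial protein, had 503 and 762 CPM in brain and 23.2 and 19.8 CPM in liver, and Slc1a2, the main astrocytic glutamate transporter, had 374 and 411 CPM in brain and 2.92 and 3.10 CPM in liver. Aldh1l1, an enzyme of folate metabolism, was the exception, with 444 and 568 CPM in liver and 103 and 132 CPM in brain. Its log2 fold change was -2.10 ± 0.22 (SE). Of 13 oligodendrocyte genes, 10 of the 11 tested were higher in brain, with a median of 3.04. Olig1, a factor of the lineage, had 64.8 and 98.9 CPM in brain and 0.507 and 0.694 CPM in liver, Pdgfra, the receptor of its precursors, had 69.6 and 71.3 CPM in brain and 22.9 and 19.0 CPM in liver, and Cspg4, the NG2 proteoglycan, had 47.1 and 48.9 CPM in brain and 1.01 and 1.80 CPM in liver. Olig2 had 39.6 and 44.5 CPM in brain and no read in liver, at least 565-fold. Myelin genes were low: Mbp, myelin basic protein, had 32.0 and 75.7 CPM in brain and 26.5 and 12.2 CPM in liver and was not called, and Mog and Mobp stayed under the filter.

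Choroid plexus genes, of the epithelium that makes cerebrospinal fluid, were higher in brain in 7 of 9 cases (4 without control liver 1), with a median of 2.38. All 9 were higher in control brain 2 than in control brain 1, with a median gap of 1.22. Otx2, the transcription factor of this epithelium, had 9.17 and 17.97 CPM in brain and 0.127 and 0 CPM in liver, and Clic6 had 4.85 and 16.3 CPM in brain and 0.761 and 1.51 CPM in liver. Slc4a5, a bicarbonate transporter, had 1.44 and 12.9 CPM in brain and 1.59 and 0.286 CPM in liver and was not called. Aqp1, the water channel of the plexus and also of red cells, was higher in liver, with 411 and 252 CPM in liver and 6.61 and 12.3 CPM in brain. Ttr, transthyretin, which choroid plexus and hepatocytes both secrete, had 129 and 768 CPM in brain and 2444 and 1597 CPM in liver. Its brain libraries differed in the direction of the choroid plexus list, and with a log2 fold change of -2.65 ± 0.83 (SE) it was called higher in liver (limma adjusted p = 0.0328). The part of the plexus in this spread was not tested.

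**Figure D3:**
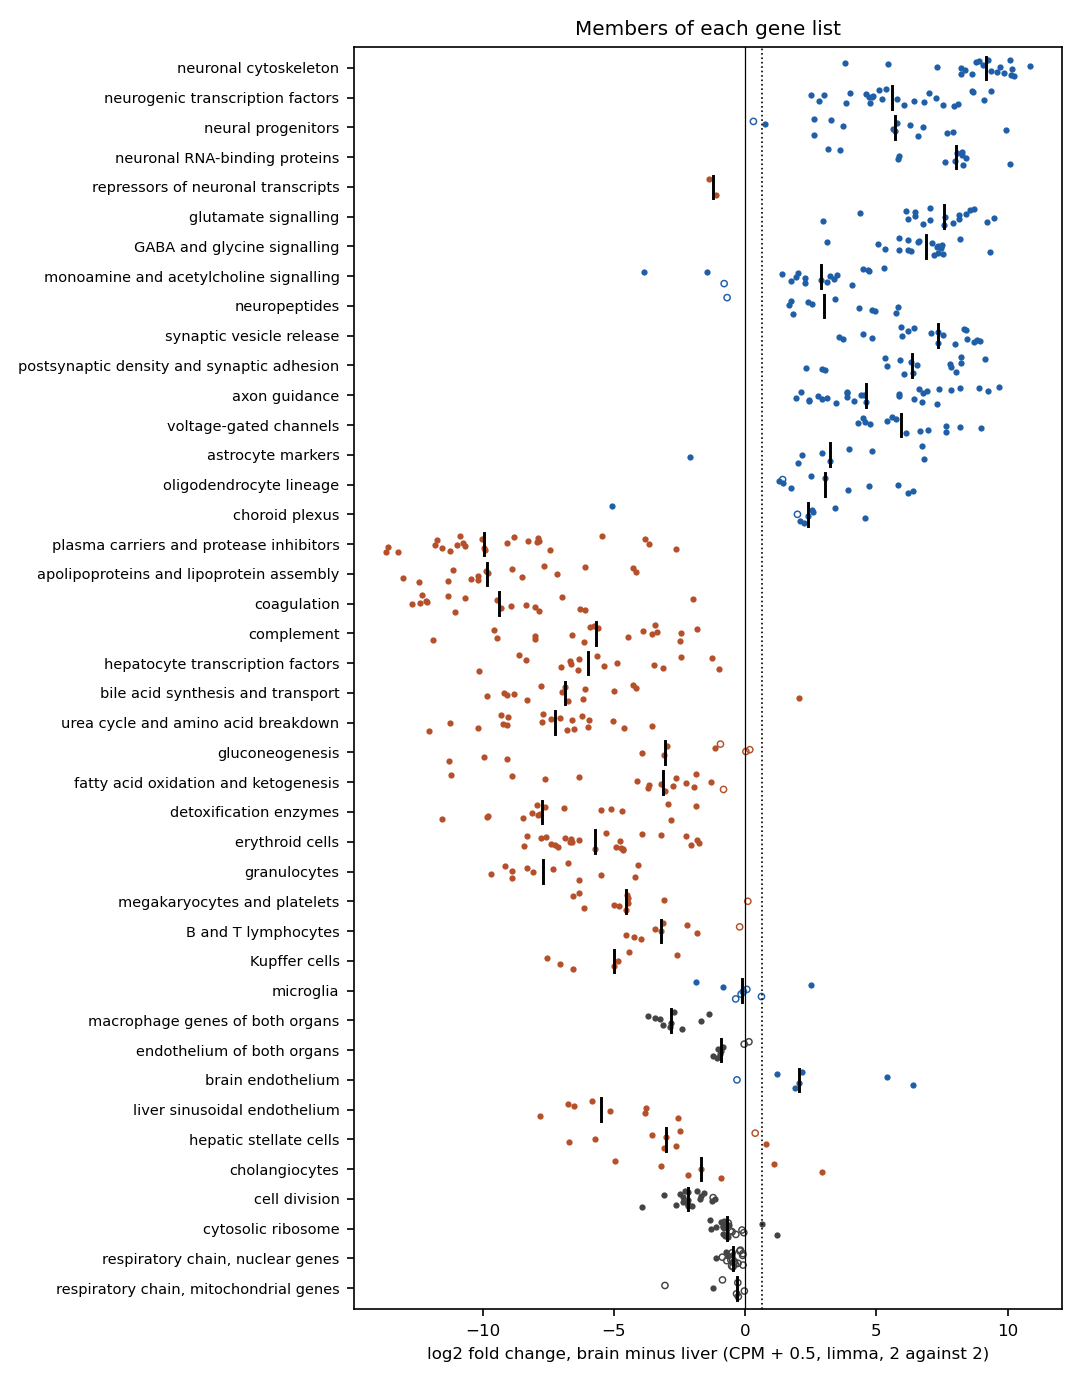
Log2 fold change, control brain minus control liver, of each tested member of the gene lists (1 point each, filled where called by limma at an adjusted p under 0.05, open where not), with the list median as a black bar. Blue lists belong to the brain programme, orange lists to the liver programme and grey lists to both, the solid line is 0 and the dotted line is the median of all genes tested, 0.64, so that the neural lists lie to the right and the hepatocyte and blood lists to the left.

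The hepatocyte programme was taken from lists of 173 genes, of which 170 were tested, 165 were higher in liver and 1, Cyp7b1, was higher in brain. The median log2 fold change was -7.42, or -7.85 with genes that had no read in an organ at their bound. These genes took 25.7% and 26.8% of liver reads and 0.171% and 0.282% of brain reads. The 4 not called were Mdh1, Ppargc1a, Pck2 and Bdh1. Without control liver 1, 166 were higher in liver and 1 in brain. In each of the 10 hepatocyte lists more members were lower in control liver 1 than in control liver 2. Most genes went this way: of all 18579 tested, 7418 were higher in control liver 1. The median gap over all genes, control liver 1 minus control liver 2, was -0.11 on the log2 scale.

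All 25 plasma carriers and protease inhibitors were higher in liver, with a median of -9.95, and they alone took 15.2% and 12.7% of liver reads. Ahsg, fetuin A, which keeps calcium phosphate soluble in plasma, had 26216 and 35222 CPM in liver and 1.65 and 2.21 CPM in brain. Itih3, a heavy chain of inter-alpha-trypsin inhibitor, had 3949 and 5870.2 CPM in liver and 7.41 and 13.9 CPM in brain. Afp and Alb were higher in control liver 1 and Ahsg and Itih3 in control liver 2. All 16 apolipoprotein genes were higher in liver, with a median of -9.83. Apob, the structural protein of very-low-density lipoprotein, had 6020.1 and 13948 CPM in liver and 0.587 and 0.606 CPM in brain, and Apoa2 had 1703 and 2156 CPM in liver and 0.160 and 0.346 CPM in brain. Apoe, which astrocytes also secrete, had 7334 and 13485 CPM in liver and 385 and 793 CPM in brain, the smallest contrast of the list with a log2 fold change of -4.17.

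Clotting and complement genes were higher in liver in 18 of 18 cases each, with medians of -9.36 and -5.68. The 3 fibrinogen chains were among the most abundant: Fga had 7756 and 6746 CPM in liver and 1.12 and 0.260 CPM in brain, Fgb had 8772 and 7544 CPM in liver and 1.07 and 0.953 CPM in brain and Fgg had 4749.8 and 3707 CPM in liver and 0.427 and 0.476 CPM in brain. Plg, plasminogen, had 3352 and 4520.03 CPM in liver and 0.213 and 0.520 CPM in brain. C3, the central complement protein, had 11355 and 10879.9 CPM in liver and 2.45 and 2.38 CPM in brain, with a log2 fold change of -11.90 ± 0.16 (SE). Hc, complement component C5, had 522 and 516 CPM in liver and 0.107 and 0.433 CPM in brain, and Cfi, a complement protease, had 472 and 476 CPM in liver and 0.160 and 0.0866 CPM in brain. C4b, with a near-identical neighbour in the genome that could share its reads, had 463 and 611 CPM in liver and 1.17 and 2.08 CPM in brain. Brain values of these genes were at most a few CPM.

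Transcription factors of the hepatocyte were higher in liver in 16 of 16 cases, with a median of -5.996. Hnf4a, the nuclear receptor at the head of this network, had 502 and 817 CPM in liver and 0.0533 and 0.0866 CPM in brain. It had 3 reads over both brain libraries, which gives a ratio of 9673 (95% counting interval 3309 to 46907). Creb3l3, a factor of fasting and lipid metabolism, had 273 and 485 CPM in liver and 0.320 and 0.563 CPM in brain. Cebpa had 199.7 and 343 CPM in liver and 5.07 and 6.58 CPM in brain, and Nr1i3, a receptor that induces detoxification, had 142 and 239 CPM in liver and 0 and 0.130 CPM in brain. The brain and liver libraries did not overlap for any of these 4, as in 88.0% of all genes tested. Of the 16, 1 was higher in control liver 1 than in control liver 2.

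Bile acid genes were higher in liver in 14 of 15 cases, with a median of -6.86. Slc10a1, which takes bile acids up from blood, had 359.9 and 612 CPM in liver and 0 and 0.0433 CPM in brain, and Abcb11, which pumps them into bile, had 256 and 422 CPM in liver and 0.160 and 0.303 CPM in brain. Abcc2, the export pump of conjugates, had 362 and 659 CPM in liver and 0.480 and 0.217 CPM in brain. Cyp7a1, the rate-limiting enzyme of bile acid synthesis, had 148 and 19.2 CPM in liver and no read in brain. Its liver libraries were thus far apart, and it was at least 1168-fold higher in liver on their mean. Cyp7b1, of the alternative pathway that starts from oxysterols, was higher in brain with 4.96 and 6.45 CPM in brain and 0.761 and 1.27 CPM in liver. Its log2 fold change was 2.05 ± 0.29 (SE), with a limma adjusted p of 0.00186.

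Genes of ammonia disposal and amino acid breakdown were higher in liver in 20 of 20 cases, each at least 8-fold, with a median of -7.22. Cps1, the entry enzyme of the urea cycle, had 5552 and 6826 CPM in liver and 0.693 and 1.30 CPM in brain, and Arg1, its last enzyme, had 837 and 988 CPM in liver and 0.373 and 0.217 CPM in brain. Hpd, of tyrosine breakdown, had 989 and 1494 CPM in liver and no read in brain, at least 17311-fold. Agxt, which clears glyoxylate, had 263 and 642 CPM in liver and 0.160 and 0.130 CPM in brain. Control liver 2 was above control liver 1 in each of these 4 genes.

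Of 10 gluconeogenesis genes 7 were higher in liver, with a median of -3.05. Pck1, the cytosolic phosphoenolpyruvate carboxykinase, had 1391 and 2129 CPM in liver and 0.160 and 0.217 CPM in brain, and Fbp1, fructose bisphosphatase, had 775 and 858 CPM in liver and 0.373 and 0.303 CPM in brain. Pcx, pyruvate carboxylase, which also refills the citrate cycle in astrocytes, had 1005 and 1465 CPM in liver and 69.9 and 91.1 CPM in brain, and Got1, an aspartate aminotransferase, had 632 and 422 CPM in liver and 58.8 and 71.3 CPM in brain. The 3 not called were Pck2, the mitochondrial carboxykinase, with 9.07 and 4.29 CPM in liver and 5.76 and 7.10 CPM in brain, Ppargc1a, a coactivator, with 27.3 and 45.0 CPM in liver and 37.0 and 42.6 CPM in brain, and Mdh1, malate dehydrogenase, with 159 and 317 CPM in liver and 114 and 119.5 CPM in brain. With TMM Mdh1 was called higher in liver. Pck2 and Ppargc1a overlapped between the organs. Of 16 genes of fat oxidation and ketone formation 15 were higher in liver, with a median of -3.13. Cyp4a14, an omega-hydroxylase of fatty acids, had 973 and 3213 CPM in liver and 0.267 and 0.217 CPM in brain, and Ehhadh, of the peroxisomal pathway, had 444 and 1253 CPM in liver and 2.67 and 4.11 CPM in brain. Acaa2, a mitochondrial thiolase, had 349 and 407 CPM in liver and 21.1 and 21.8 CPM in brain. Bdh1, which makes and uses the ketone body 3-hydroxybutyrate, had 128 and 358 CPM in liver and 121 and 121 CPM in brain and was called, higher in liver, with TMM alone.

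Detoxification genes were higher in liver in all 16 cases tested, with a median of -7.73, while Cyp2c29 and Gsta1 stayed under the filter. Cyp2e1, which oxidizes ethanol and small solvents, had 1527 and 1856 CPM in liver and 0.0533 and 0.0866 CPM in brain, a ratio of 24089.5 (95% counting interval 8243 to 116815) on 3 brain reads. Cyp2d26 had 727 and 1538 CPM in liver and 0.640 and 0.693 CPM in brain and Cyp3a11 had 463 and 473 CPM in liver and 0 and 0.0433 CPM in brain, both from families of near-identical genes whose reads may be split. Por, the reductase that feeds electrons to all of these enzymes, was read in both organs, with 767 and 818 CPM in liver and 104 and 102 CPM in brain.

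Related genes that carry out the same reaction were compared in 19 families with 48 genes, of which 47 were tested. Of these, 26 were higher in brain, 16 in liver and 5 were not called, beside 49.2% and 22.2% of all genes tested. Their median log2 fold change of 0.65 lay near the 0.64 of all genes tested. In 15 of the 19 families at least 1 member was called toward each organ, and 13 of these 15 kept such calls with TMM, where 2 other families gained them. How often groups of unrelated genes of this size would hold such calls was not tested.

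In glucose use, the transporter Slc2a2 had 159.9 and 298 CPM in liver and 0.160 and 0.0433 CPM in brain, and the neuronal transporter Slc2a3 had 70.9 and 83.4 CPM in brain and 31.9 and 37.2 CPM in liver. Slc2a1, of the blood-brain barrier and of red cells, had 229.9 and 59.6 CPM in liver and 52.9 and 60.8 CPM in brain and was not called, and control liver 1 was the high library. Hk1, the hexokinase of brain, had 206 and 199 CPM in brain and 87.1 and 38.1 CPM in liver. Hk2 had 13.7 and 11.2 CPM in liver and 4.69 and 5.46 CPM in brain. Pfkp, the platelet and brain phosphofructokinase, had 460.3 and 486 CPM in brain and 8.12 and 12.0 CPM in liver, Pfkm, of muscle, had 150.2 and 167 CPM in brain and 29.4 and 19.1 CPM in liver, and Pfkl, named for liver, had 80.3 and 80.0 CPM in brain and 59.4 and 48.9 CPM in liver. Pfkl was called higher in brain with CPM at 0.57 and stood at -0.00203 with TMM, where it was not called.

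At later steps of glycolysis, Aldoc, the aldolase of brain, had 128 and 198 CPM in brain and 16.4 and 11.9 CPM in liver. Aldoa had 263 and 324 CPM in brain and 171 and 204 CPM in liver, a difference of 0.64 that was called with CPM and stood at 0.0699 with TMM, where it was not called. Pklr had 99.0 and 46.4 CPM in liver and 0.480 and 0.390 CPM in brain against 189 and 184 CPM in brain and 40.9 and 48.6 CPM in liver for Pkm. Eno2, the neuronal enolase, had 132 and 169 CPM in brain and 0.634 and 0.735 CPM in liver, while Eno1 had 40.3 and 45.9 CPM in brain and 40.8 and 73.8 CPM in liver. Eno1 was not called with CPM and was called higher in liver with TMM, at -0.91, and also with CPM when control liver 1 was left out. Per kilobase, Aldoa gave 101 CPM in brain and Aldoc 50.0, against 64.5 and 4.33 in liver. Ldha, the lactate dehydrogenase subunit that favours lactate, was higher in liver, with 356 and 454 CPM in liver and 87.3 and 87.0 CPM in brain, and Ldhb was higher in brain, with 63.3 and 69.1 CPM in brain and 4.95 and 5.51 CPM in liver.

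Among genes of stores, nitrogen and fat, the glycogen phosphorylases were Pygl with 216 and 246 CPM in liver and 7.36 and 8.96 CPM in brain and Pygb with 159 and 236 CPM in brain and 29.5 and 46.5 CPM in liver, while the muscle form Pygm had 6.77 and 8.96 CPM in brain and 4.50 and 6.86 CPM in liver and was not called. The glycogen synthase Gys2 had 61.8 and 104 CPM in liver and 0.160 and 0.0866 CPM in brain and Gys1 had 27.7 and 36.2 CPM in brain and 17.6 and 20.9 CPM in liver. Gys1 was called higher in brain with CPM at 0.71 and was not called with TMM, at 0.15. Gls2, a glutaminase, had 71.9 and 195 CPM in liver and 2.13 and 2.60 CPM in brain. Cpt1a, the gate of fat oxidation in mitochondria, had 708 and 921 CPM in liver and 34.7 and 42.3 CPM in brain, and its brain form Cpt1c had 50.5 and 59.5 CPM in brain and 2.92 and 3.47 CPM in liver. Cpt1b, of muscle, had 1.01 and 1.47 CPM in liver and 0.427 and 0.736 CPM in brain and was not called with CPM, but was called higher in liver with TMM. Hmgcs1, of cholesterol synthesis, had 516 and 455 CPM in brain and 71.7 and 52.9 CPM in liver. Mat1a, which makes the methyl donor S-adenosylmethionine in liver, had 3378 and 4432 CPM in liver and 0.587 and 0.390 CPM in brain against 127 and 124 CPM in brain and 82.7 and 76.6 CPM in liver for Mat2a. Mat2a was called higher in brain with CPM at 0.65 and was not called with TMM, at 0.0834. Fabp1 had 356 and 542 CPM in liver and no read in brain, at least 6264-fold, and Fabp7, of radial glia, had 185 and 164 CPM in brain and 0.254 and 0.449 CPM in liver. Fabp5 had 40.5 and 48.4 CPM in liver and 23.3 and 32.9 CPM in brain.

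Membrane and skeleton proteins showed a division of another kind, in which the liver side was held by genes of red cells. Sptan1, a spectrin of neurons and most other cells, had 1484 and 1625 CPM in brain and 172 and 281 CPM in liver. Sptb, the erythroid beta-spectrin, had 1059 and 238 CPM in liver and 116 and 125 CPM in brain, against 1015 and 1032 CPM in brain and 192 and 295 CPM in liver for Sptbn1. Ank1, the erythroid ankyrin, had 499 and 163 CPM in liver and 71.7 and 101 CPM in brain, while Ank2, of neurons, had 1340.1 and 1351 CPM in brain and 32.7 and 22.9 CPM in liver. Ank3, which anchors channels at the start of the axon, had 1054 and 1014 CPM in brain and 68.6 and 124 CPM in liver. Sptb and Ank1 were both higher in control liver 1. Ckb, the brain creatine kinase, had 315 and 402 CPM in brain and 8.05 and 11.4 CPM in liver.

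**Figure D4:**
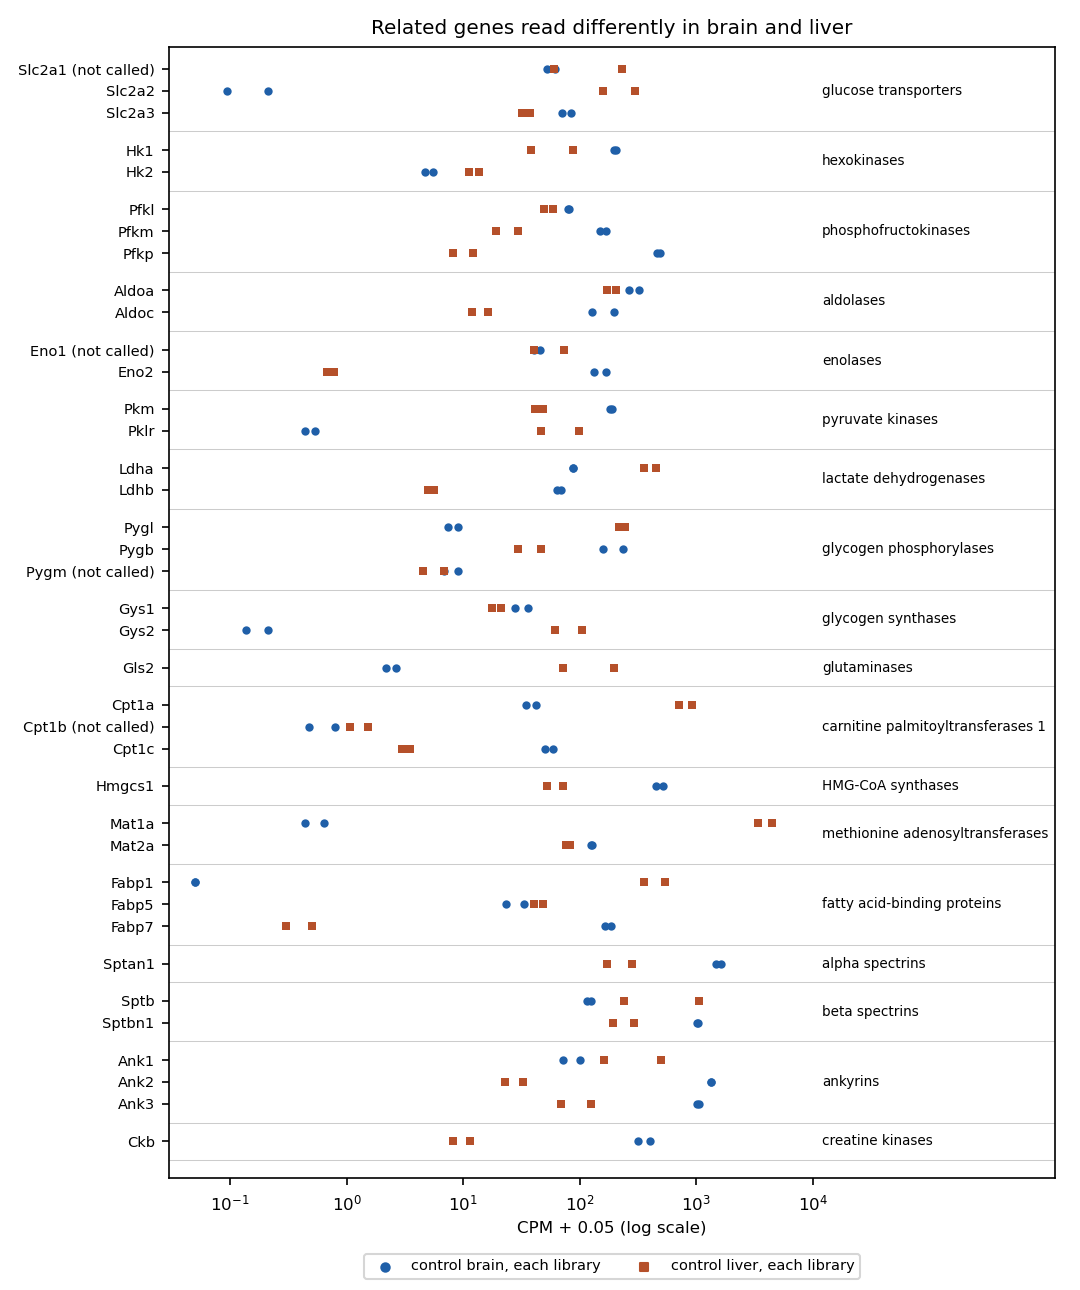
CPM + 0.05 (log scale) of members of families of related genes, with 1 blue circle per control brain library and 1 orange square per control liver library. Families such as the glycogen phosphorylases hold a gene that lies to the right in brain, Pygb, and another that lies to the right in liver, Pygl, and genes that were not called are marked.

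Blood-forming cells were read in liver. Of 61 genes of 4 blood cell lists 57 were tested, 55 were higher in liver and 0 in brain, with a median of -4.93. Gp1bb and Pax5 were not called. All 25 erythroid genes were higher in liver (median -5.70), and all 25 were higher in control liver 1 than in control liver 2, with a median gap of 1.69. The list took 2.95% and 0.966% of liver reads and 0.0995% and 0.0685% of brain reads, in which the first library was again the higher. Hba-a1 had 2536 and 1373 CPM in liver and 112 and 48.7 CPM in brain, and reads of Hba-a1, Hba-a2 and the beta-globin pair may be shared between near-identical copies. Slc4a1, the anion exchanger of the red cell membrane, had 3071 and 809.98 CPM in liver and 6.61 and 2.43 CPM in brain. Without control liver 1 the erythroid median was -4.87, and 23 of the 25 were called. The mutant livers showed the same gap, with 3.51% and 1.53% of reads.

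Granulocyte genes were higher in liver in 12 of 12 cases, each at least 8-fold, with a median of -7.69, and 3 of the 12 were higher in control liver 1 than in control liver 2. Ngp, of neutrophil granules, had 710.2 and 972 CPM in liver and 0.427 and 0.606 CPM in brain, S100a9, a calcium-binding protein of neutrophils, had 449 and 469.7 CPM in liver and 0.213 and 0.433 CPM in brain, and Mpo, myeloperoxidase, had 373 and 406 CPM in liver and 0.427 and 0.260 CPM in brain. Of 11 megakaryocyte genes 10 were higher in liver. Itga2b, the platelet integrin, had 78.5 and 142 CPM in liver and 2.72 and 3.98 CPM in brain, and Pf4, platelet factor 4, had 46.2 and 66.6 CPM in liver and 1.60025 and 2.21 CPM in brain, while Gp1bb, of the same receptor complex as other platelet glycoproteins, had 13.7 and 31.1 CPM in liver and 20.2 and 24.6 CPM in brain. Lymphocyte genes were low: Rag1, which cuts antigen receptor genes, had 11.3 and 15.3 CPM in liver and 0.533 and 1.04 CPM in brain. Pax5, a B-cell factor that is also used in the midbrain, had 18.1 and 20.1 CPM in liver and 12.2 and 22.1 CPM in brain. The T-cell genes Cd3d, Cd3e and Cd3g stayed under the filter in both organs.

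Cell division genes divided the liver libraries in the same order as the erythroid genes. Of 20 genes 19 were higher in liver with CPM and 20 with TMM, with a median of -2.18, and all 20 were higher in control liver 1 than in control liver 2. Mki67, a marker of cycling cells, had 1343 and 515 CPM in liver and 63.3 and 45.8 CPM in brain, and Top2a, which untangles replicated DNA, had 301 and 117 CPM in liver and 49.2 and 35.2 CPM in brain. Mcm2, of the replication helicase, had 139 and 65.6 CPM in liver and 18.03 and 22.2 CPM in brain, and Pcna, the member called with TMM alone, had 61.8 and 24.3 CPM in liver and 15.6 and 17.2 CPM in brain. The list took 0.319% and 0.127% of liver reads and 0.0361% and 0.0310% of brain reads, and 0.334% and 0.148% in mutant livers. Without control liver 1 the median was -1.50, and 17 were called. Which cells held these reads was not tested.

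**Figure D5:**
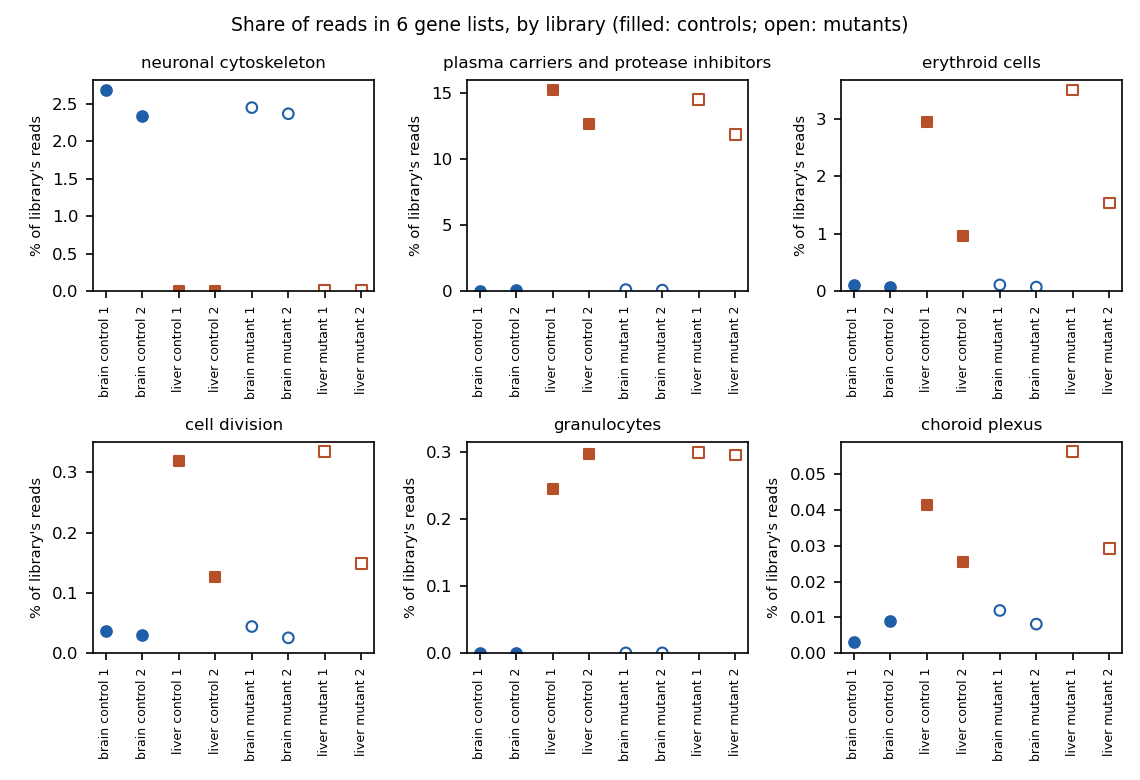
Percent of each library's reads (vertical axis, from 0) in 6 gene lists, for control libraries (filled) and mutant libraries (open) of brain (blue circles) and liver (orange squares). Erythroid and cell division genes are higher in the first liver library than in the second in controls and in mutants, while plasma carriers and granulocyte genes separate the organs with less spread within liver. The choroid plexus list takes a larger share in liver, where Aqp1 has 411 and 252 CPM.

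Resident macrophages differed by gene. All 7 Kupffer cell genes were higher in liver than in brain, with a median of -5.00. The Kupffer cell genes were not particular to liver: they summed to 449 and 652 CPM in control liver and 522 and 830 CPM in control spleen. All 10 macrophage genes used in both organs were higher in liver than in brain, with a median of -2.84. Marco, a scavenger receptor, had 55.1 and 175 CPM in liver and 0.0533 and 0 CPM in brain, Clec4f, a lectin of Kupffer cells, had 72.1 and 46.4 CPM in liver and 0.107 and 0.130 CPM in brain, and Csf1r, the receptor on which macrophages depend, had 165 and 231 CPM in liver and 30.9 and 42.8 CPM in brain. Microglial genes did not separate the organs as a group: of 8 tested, 1 was higher in brain and 2 in liver, with a median of -0.11. Fcrls was higher in brain, with 4.59 and 3.81 CPM in brain and 0.507 and 0.163 CPM in liver, and Olfml3 was higher in liver, with 15.8 and 12.98 CPM in liver and 9.12 and 6.45 CPM in brain. P2ry13, a purine receptor, was higher in liver, with 13.1 and 7.92 CPM in liver and 1.55 and 3.68 CPM in brain. Without control liver 1 neither of these was called in liver. Cx3cr1, a chemokine receptor of microglia, had 6.99 and 6.32 CPM in brain and 9.13 and 8.25 CPM in liver and was called, higher in liver, with TMM alone.

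Vessel genes were called in different directions by list. Of 8 genes of all endothelium 6 were higher in liver, with a median of -0.93. Kdr, a receptor for vascular growth factor, had 87.7 and 118 CPM in liver and 55.3 and 49.5 CPM in brain, and Cdh5, the cadherin of endothelial junctions, had 80.2 and 104 CPM in liver and 41.7 and 35.9 CPM in brain. Of 7 blood-brain barrier genes 6 were higher in brain, with a median of 2.03. Slco1c1, a thyroid hormone carrier, had 45.2 and 53.2 CPM in brain and 0.0634 and 0.122 CPM in liver. Mfsd2a, a lipid carrier of the barrier, had 22.7 and 22.0 CPM in brain and 0 and 0.0816 CPM in liver, a ratio of 449.99 (95% counting interval 124 to 3721) on 2 liver reads. All 8 sinusoidal genes were higher in liver than in brain, with a median of -5.49. They were not particular to liver: the list summed to 678 and 740 CPM in control liver and 571 and 1024 CPM in control spleen. Stab2, a scavenger receptor of sinusoids, had 225 and 224 CPM in liver and 0.267 and 0.823 CPM in brain, and Lyve1, which binds hyaluronan, had 108 and 106 CPM in liver and 6.19 and 8.40 CPM in brain.

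Of 9 stellate cell genes 7 were higher in liver. Colec10, a collectin, had 64.7 and 59.8 CPM in liver and 0.213 and 0 CPM in brain, and Dcn, decorin of the matrix, had 109 and 125 CPM in liver and 21.2 and 19.4 CPM in brain. Reln, which marks stellate cells in liver and is secreted by neurons that guide cortical layering, was higher in brain with 606 and 540.1 CPM in brain and 345 and 319 CPM in liver. Its log2 fold change was 0.78 with CPM and 0.21 with TMM, where it was not called. Bile duct genes were low: of 7 genes, 5 were higher in liver, among them Krt19, a keratin of ducts, with 3.23 and 5.88 CPM in liver and 2.08 and 2.04 CPM in brain. Sox9, which ducts share with neural progenitors, was higher in brain, with 31.1 and 29.7 CPM in brain and 4.06 and 3.14 CPM in liver, and so was Cftr, a chloride channel, with 1.39 and 1.69 CPM in brain and 0.507 and 0.408 CPM in liver.

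Genes of the cytosolic ribosome and the respiratory chain gave counts of calls that differed between the scalings. Of all genes tested, 22.2% were higher in liver and 49.2% in brain with CPM, and 31.3% and 36.9% with TMM. Of 20 cytosolic ribosome genes, 12 were higher in liver and 2 in brain with CPM, and 17 and 1 with TMM. Their median was -0.70 with CPM and -1.27 with TMM, below the median of all genes in both. Rpl8 had 488 and 525 CPM in liver and 275 and 293 CPM in brain, though pseudogene copies may share reads of such genes. Of 20 nuclear respiratory chain genes 4 were higher in liver with CPM, 15 without control liver 1 and 19 with TMM, with medians of -0.48 and -1.04. Atp5b, a subunit of ATP synthase, had 890.3 and 1237 CPM in liver and 611 and 647 CPM in brain. Of 13 mitochondrial genes 6 stayed under the filter, among them mt-Co2, mt-Co3 and mt-Atp6, with 0 to 0.571 CPM in the control libraries. Whether their reads were lost in mapping or counting was not tested. The other 7 passed the filter. Of these, mt-Nd5 was called with CPM, with 1023 and 677 CPM in liver and 324 and 387 CPM in brain, with 3 called without control liver 1, and all 7 were called higher in liver with TMM. The widest difference of the 7 was that of mt-Nd6, picked out after its values were seen, with 838 and 62.2 CPM in liver and 28.2 and 26.1 CPM in brain, and it was not called with CPM. Control liver 1 was the high library, and of the mutant livers, with 450.5 and 34.0 CPM, the first was.

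Genes outside the lists with the widest contrasts were taken from those called, with a mean of at least 50 CPM in the higher organ. In brain they were Ncan, Lrrc4b, Tmod2, Nsg2, Islr2, Rab6b, Sept3, Gprin1, Jph4 and Atcay, with log2 fold changes from 11.04 to 9.30. Ncan, neurocan of the brain matrix, had 1429 and 1358 CPM in brain and 0.380 and 0 CPM in liver, and Tmod2, the neuronal tropomodulin that caps actin, had 781 and 808 CPM in brain and 0.190 and 0.163 CPM in liver. Lrrc4b, a synaptic adhesion protein, had 681 and 703 CPM in brain and 0.0634 and 0.0408 CPM in liver, a ratio of 13959 (95% counting interval 3864 to 115267) on 2 liver reads. In liver they were Pzp, Igfbp1, Azgp1, Cyp3a25, Bhmt, Gm5096, Cpn2, Apcs, Hrg and Proz, from -12.36 to -9.14. Pzp, a protease inhibitor of plasma, had 5305 and 4568 CPM in liver and 0.480 and 0.390 CPM in brain, and Igfbp1, which binds insulin-like growth factors, had 1731 and 3252 CPM in liver and 0.533 and 0.736 CPM in brain. Bhmt, which remethylates homocysteine, had 549.6 and 588 CPM in liver and no read in brain, at least 7929.7-fold. Apcs, Hrg and Proz also had no read in brain, and were at least 4502-fold, 4331-fold and 4120.1-fold higher in liver.

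The same contrast was fitted in the mutants, which share no library with the controls. There 9354 of 18676 genes (50.1%) were higher in brain and 4212 (22.6%) in liver. Both counts fell when a mutant brain library was left out, which leaves 1 library in a group. Of the 9035 genes called higher in brain in controls and also tested in mutants, 8398 were called the same way, and of 3971 called higher in liver, 3542 were. In 11 genes the call was opposite. In controls and mutants alike the call went the same way for 245 of the 250 tested neural genes and 158 of the 170 hepatocyte genes. Tubb3 had 2144 and 1952 CPM in mutant brain and 0.705 and 5.97 in mutant liver, and Alb had 5.29 and 2.86 in mutant brain and 79158 and 49049 in mutant liver.

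Xist, the deleted gene of the series (ENSMUSG00000086503, chromosome X, 103460366 to 103483254, minus strand), was read at 650.1 and 689.7 CPM in control brain and 592 and 742 in control liver. Its organ difference in controls was 0.02 ± 0.22 (SE) on the log2 scale with CPM, and was not called. With TMM it stood at -0.56 and was called higher in liver (limma adjusted p = 0.0456). In mutants it had 3.66 and 4.16 CPM in brain and 176 and 257 in liver, so the libraries labelled mutant liver held far more of it than those labelled mutant brain. The difference between the genotypes' organ contrasts was tested for all 18579 genes by a limma interaction, which called 11 (0.0592%), with 1035 at an unadjusted p under 0.05. It called 0 without any 1 of the 4 brain libraries, 4 without control liver 1 or mutant liver 1 and 57 without mutant liver 2. Xist was among the 11 at -5.61 ± 0.30 (SE, limma adjusted p = 0.00239). None of the other 10 belongs to the neural lists, and 1, Sds, a serine dehydratase, belongs to the hepatocyte lists. In a design of 2 against 2 libraries, an exact permutation test of 1 gene could not go below p = 0.333, so all calls rest on the spread that limma shares across genes.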

How the data were processed

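Total RNA of whole organs was extracted with Trizol, depleted of ribosomal RNA and sequenced with 50 nt reads, per the labels' protocols and the series text. The authors deposited one table per tissue of normalized gene signal, made with HTSeq 0.6.1 and edgeR (version not given) on GRCm38, per the submitters' processing notes. Aligner, annotation and strand setting: not given in the sources used here. Reads of overlapping antisense genes therefore cannot be separated. The deposited signal came out as whole reads in 100% of values at a tolerance of 0.05 reads. Each column was divided by its sum and multiplied to CPM. Gene names came from GENCODE M21 for 45229 of 46078 identifiers. The other 849 stayed in the tests and took 0.108% of the reads or less in each library.

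Brain and liver were compared with limma 3.58.1 (R 4.3.3) on log2(CPM + 0.5) over genes with a mean of at least 1 CPM in either organ, with Benjamini-Hochberg adjustment over all genes tested, an adjusted p under 0.05 being a call. A fold change is on that scale and understates the change of low genes. TMM scaling, edgeR 4.0.16 and DESeq2 1.42.0 on the recovered reads were alternatives. On 18579 genes simulated for brain against liver, 88 of 100 genes changed 4-fold and 3 of 100 changed 2-fold were recovered, with 14 false calls. For the organ difference by genotype, 39 of 100 and 1 of 100 were recovered, with 6 false calls. In both simulations 2-fold changes were mostly missed. Far fewer genes were changed in them than the 13263 called between the real control organs. This recovery therefore does not describe the real brain and liver contrast. P-values measure the spread between 2 libraries a group.

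Members and lists were chosen with earlier results of these data known. Named genes were the 4 organ markers, Xist, up to 4 members of each list with the highest mean CPM, members called against their programme, the members of the families, and the 10 genes with the widest contrast per organ outside the lists. Cyp8b1, Syn1, Ptbp2, Notch1, Maoa, Cyp7a1, uncalled members and others beyond this rule were named after their values were seen. Klkb1 and Ahsp matched no gene name in the tables. Motif letters were shortened for 2 of the 7 motifs after a longer form had been searched. Some members that this rule names are not reported here.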

Additional observations from a re-analysis of the deposited data

Results flagged for a closer look

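In 11 genes the organ difference was called different between the genotypes by the limma interaction test, which is why they are given here with the values of mutants minus controls on the log2 scale. These calls were lost when any 1 of the 4 brain libraries was left out, which leaves 1 library in a group. The reason for the loss was not tested. Xist gave -5.61. Stfa1, a stefin of myeloid cells, had 61.1 and 73.1 CPM in control liver and 1.22 and 0.686 in mutant liver, with no read in any brain library, a value of 5.56. 2010005H15Rik, also with no read in brain, had 2.28 and 2.57 CPM and 0.0470 and 0.0343 CPM in liver, a value of 2.44. In the other 8 both mutant livers were above both control livers. Lpin1, a phosphatidate phosphatase, had 47.5 and 35.5 CPM in control and 1633 and 834 CPM in mutant liver (-4.60). Setdb2 and Phf11c had 36.1 and 24.2 against 585 and 497 CPM (-3.79) and 10.02 and 6.98 against 168 and 177 CPM (-4.59). Sds had 42.9 and 36.6 against 585 and 392 CPM (-3.41). Adra2a, an adrenergic receptor, gave -3.24, Wnt4, a secreted ligand, gave -2.75, Cdk20, with 17.5 and 17.2 CPM in control and 12.8 and 13.7 CPM in mutant brain and 3.17 and 3.96 CPM in control and 15.5 and 18.5 CPM in mutant liver, gave -2.49, and Tbc1d8 gave -2.06. Groups of 2 libraries were not searched for single outlying samples.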

How the results depend on the processing

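Counts of genes higher in brain and in liver ranged from 5983 to 9165 and from 2204 to 4213 when a control library was left out, the lone library being assumed to vary like the others. In mutants the count in liver ranged from 2264 to 4326. The interaction called from 0 to 57. With no filter 9864 and 4439 genes were called, with a minimum of 5 CPM 7442 and 3365, with edgeR 6360 and 5957 and with DESeq2 6323 and 5826. The replicate block gave 9329 and 4369, 9459 and 4490 in mutants and 4 for the interaction. Same-numbered libraries deviated together with a correlation of 0.196 in controls and 0.206 in mutants, but no label pairs them. Of 202 genes named, 183 were called, and 28 lost the call without control brain 1 and 28 without control brain 2. None of the 42 list medians changed sign under any of these settings. Log2 values changed sign in 9 genes. With TMM, without the 50 most abundant genes in the totals, with edgeR and with DESeq2, Xist stood at -0.56, -0.53, -0.63 and -0.60, Hopx at -0.22, -0.20, -0.40 and -0.38, Pck2 at -0.50, -0.49, -0.71 and -0.68, Ppargc1a at -0.39, -0.36, -0.49 and -0.47, Gp1bb at -0.46, -0.43, -0.62 and -0.60 and Pygm at -0.0805, -0.0561, -0.16 and -0.14. Pfkl stood at -0.00203, -0.0835 and -0.0555 with TMM, edgeR and DESeq2. When a control library was left out, the range was -0.15 to 0.18 for Xist, -0.24 to 0.87 for Hopx, -0.47 to 0.53 for Pck2, -0.18 to 0.53 for Ppargc1a, -0.48 to 0.68 for Gp1bb, -0.77 to 0.0768 for Eno1 and -0.63 to 0.21 for Pax5. Of these genes, Pfkl alone was called with CPM. Xist and Eno1 were called higher in liver with TMM, without the 50 most abundant genes, with edgeR and with DESeq2, with adjusted p from 0.00812 to 0.049 for Xist and from 0.00912 to 0.0333 for Eno1. The cause was not tested. Depth limits genes near 0.122 to 0.190 CPM, where a library cannot tell a low level from none.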
